A study of Sus scrofa with 24 samples.

Results

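The 10 genes described here build, cap or anchor the sarcomere of longissimus dorsi, the long back muscle of the pig, in a developmental series of 2 breeds. They are MYOZ1, XIRP1, TMOD4, TMOD3, DES, ACTN2, SMPX, NRAP, LIMS2 and CAPZB, taken by name from the array annotation. All 10 were found, on 15 of the 23999 non-control probe sets, out of 6765 genes that the annotation names by exactly 1 symbol. The brightest probe set by its mean over all arrays stood for a gene, and the further probe sets of TMOD3, DES, ACTN2 and CAPZB are given beside it.

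Total RNA was hybridised to 24 Affymetrix Porcine Genome arrays. Each of 2 breeds, German Landrace (DL) and Pietrain (Pi), was sampled before birth on days 35, 63 and 91 after conception (dpc) and as adult pigs. A group is 1 breed at 1 stage and holds 3 pools of RNA, lettered a to c. The labels name no treatment or allele, and do not say how many animals, of which sex or, for adults, of which age, went into a pool. Titles of the 35 dpc pools carry a letter K that is not explained, and the description field calls the prenatal pigs peripubertal, against their stated day of pregnancy, which was used here. Whether the pools of a group share animals or extractions is likewise not said, so p-values measure only the spread between pools, which may be technical.

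A striated muscle fibre is divided into sarcomeres by Z-discs, plates in which alpha-actinin cross-links the barbed ends of actin filaments. Capping proteins close both filament ends, CapZ at the Z-disc and tropomodulins at the pointed end. Desmin filaments tie neighbouring Z-discs to each other and to the membrane, and integrin-linked complexes at costameres and muscle-tendon junctions carry force to the matrix.

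Values are log2 intensities, in which 1 unit is a 2-fold difference, and all 24 columns had been brought to the same distribution before deposit, so each change is relative to the rest of the array. Levels are compared only within a probe set. Background was set per array by 23 control probe sets without target, whose highest value lay between 2.31 and 2.69, and between 21.3% and 32.2% of probe sets lay at or below it. A change was called where the limma fit over all arrays gave an adjusted p under 0.05. Pools of a group correlated at 0.990 to 0.992 in DL at 35 dpc and at 0.926 to 0.942 in adult Pi, across probe sets.

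Other measures moved with stage and breed. Of 20 skeletal muscle markers 14 were measured, and all 14 were above background on every array. Their mean level was 11.91 to 12.08 in DL and 11.49 to 11.67 in Pi at 35 dpc, and 15.29 to 15.32 and 15.20 to 15.23 in adults. Of 13 neural and Schwann cell markers 9 were measured, with a mean level of 10.38 to 10.69 at 35 dpc in both breeds and 3.23 to 3.76 at 63 dpc, where SNAP25 and SYT1 were at background in every pool. The 8 liver markers averaged 8.36 to 10.49 in the 3 DL pools at 63 dpc against 3.46 to 3.54 in Pi. They averaged 10.88 in adult Pi pool b against 3.54 and 3.61 in the other adult Pi pools, and 5.28 to 6.97 in adult DL. At 35 dpc they averaged 4.79 to 7.87 in DL and 5.26 to 6.04 in Pi, and at 91 dpc 6.30 in DL pool c. The 3'-minus-5' difference of a GAPDH control, a sign of RNA integrity, averaged 1.58 (DL) and 1.41 (Pi) at 35 dpc. It averaged 0.97 and 1.07 at 63 dpc, and 0.16 and 0.15 in adults, and served as the covariate below. A second GAPDH control put the breeds at 35 dpc in the other order, at 0.52 to 0.80 in DL and 1.08 to 1.21 in Pi. Its averages were 0.64 and 1.16 there, 0.69 and 0.79 at 63 dpc, and -0.42 and -0.59 in adults. In bulk tissue, fewer cells of a type and less RNA per cell cannot be told apart, and the part of these measures in the results was not tested except where a value is given.

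From 35 to 63 dpc 8 of the 10 genes rose, 1 fell and 1 was not called. In that comparison 44.2% of all probe sets and 54.5% of all genes were called. The median change of the 10 genes was 4.08 on the log2 scale, and that of all genes 0.03. The 10 genes were chosen with earlier results of these data known, so such comparisons with all genes only describe them. From 63 to 91 dpc 5 genes rose and none fell (18.3% of all probe sets and 26.6% of all genes called, medians 0.29 and -0.01). From 91 dpc to adult 6 rose and 1 fell (57.4% of all probe sets and 66.8% of all genes called, medians 0.86 and 0.07). The number called in this last step is near the share over all genes. Beside this step, the mean of 6 measured of 11 fibroblast and tendon markers lay between 10.77 and 11.64 at 91 dpc and between 7.51 and 8.61 in adults, and its part in the changes was not tested. These steps are averages of both breeds, and they give no single course. LIMS2 was called in the first and last steps, and TMOD4 rose in every step. The brightest probe set of CAPZB was called only after 91 dpc, whereas its second also rose in the first step (1.24, adjusted p = 1.95e-07).

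**Figure D1:**
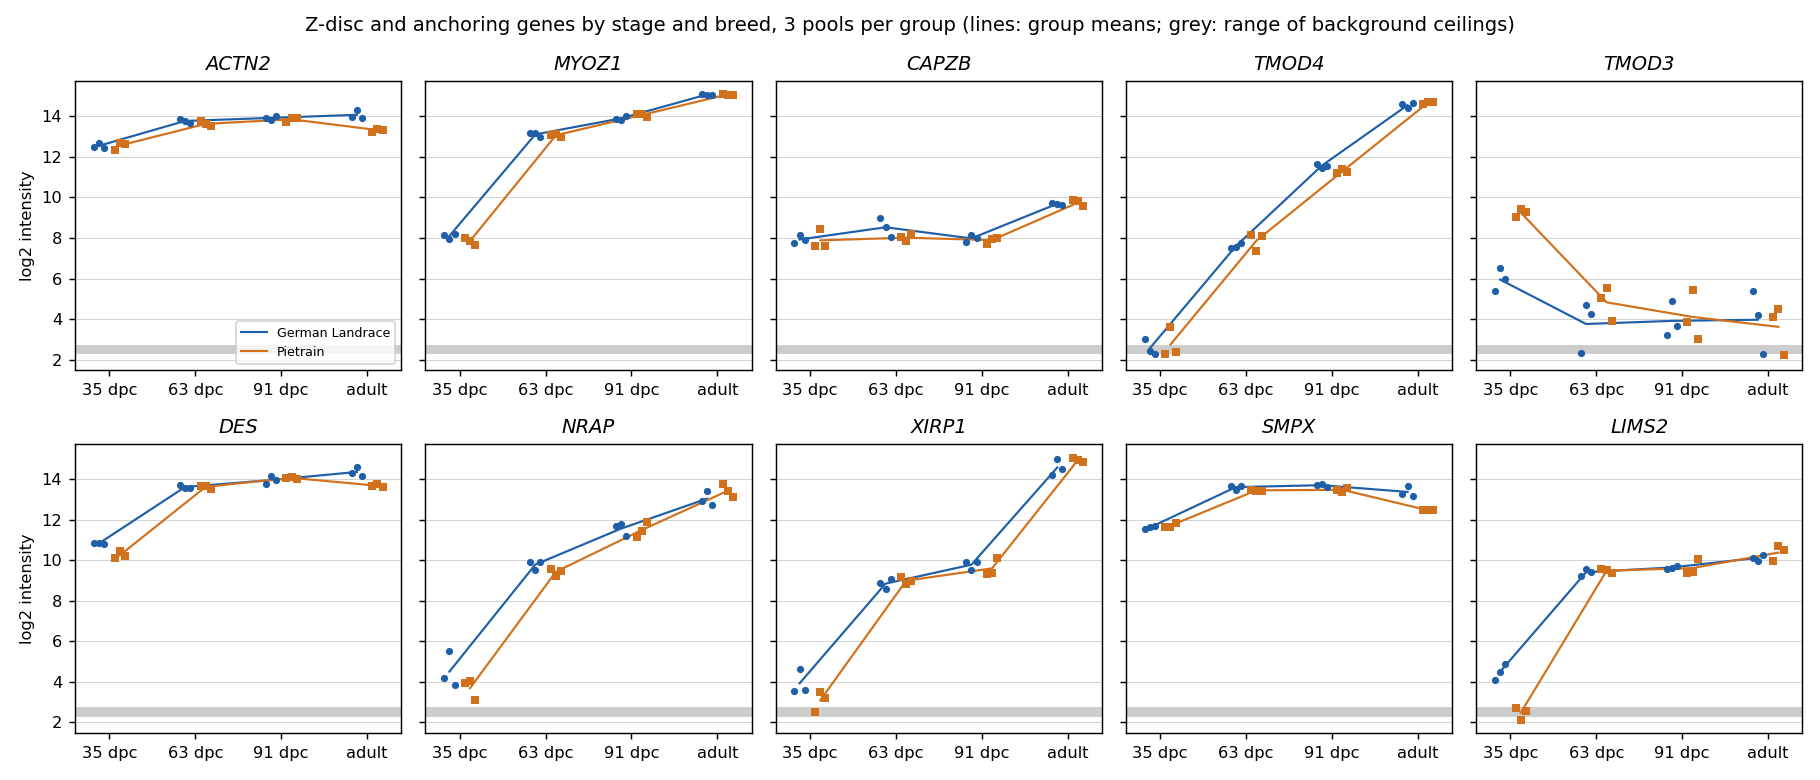
Log2 intensity (vertical axis) of the brightest probe set of each of the 10 genes by stage (horizontal axis), 3 pools per group as points, German Landrace in blue and Pietrain in orange, with lines joining group means and a grey band for the range of background ceilings (2.31 to 2.69). TMOD4 climbs from the grey band to above 14 in both breeds, TMOD3 runs the other way, and at 35 dpc the LIMS2 pools of the breeds lie apart.

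**Figure D2:**
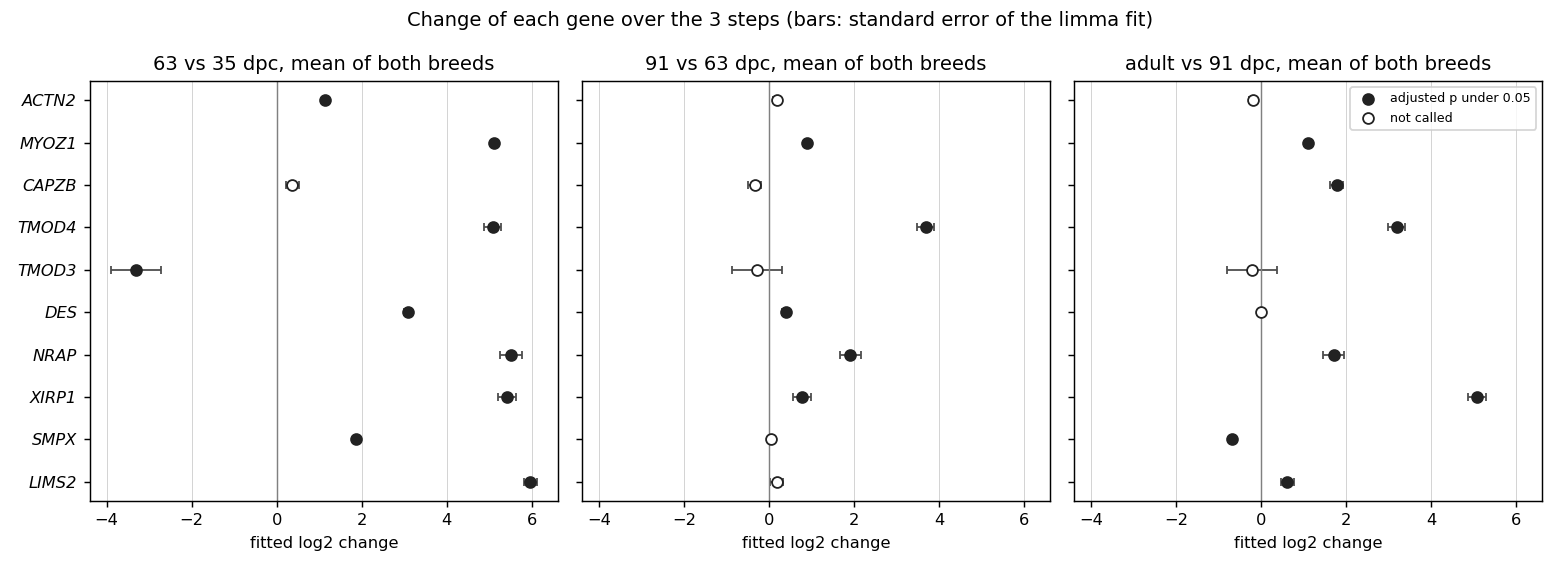
Fitted log2 change of each gene (horizontal axis, mean of both breeds) for the 3 steps between stages, with the standard error as bars and filled points for an adjusted p under 0.05. The first step holds changes above 5 for MYOZ1, TMOD4, NRAP, XIRP1 and LIMS2 and the fall of TMOD3, and in the last step XIRP1 has the largest change of the 10. CAPZB in the first step turns to -0.44 when arrays are scaled to the spiked controls, and to 0.52 with the mean of its probe sets, both called.

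ACTN2 encodes alpha-actinin-2, the cross-linker of actin filaments in the Z-disc. Its pools lay at 12.50, 12.70 and 12.46 in DL and 12.36, 12.67 and 12.66 in Pi at 35 dpc, and at 13.89, 13.78 and 13.65 and 13.76, 13.61 and 13.52 at 63 dpc. No pool of the later stage reached down to the earlier one, and the rise was 1.15 ± 0.08 (SE), or 2.21-fold (adjusted p = 2.36e-09). At 91 dpc the DL pools stood at 13.93, 13.84 and 14.001 and the Pi pools at 13.72, 13.94 and 13.91, which overlap those of 63 dpc. Adult DL pools measured 13.96, 14.34 and 13.94, and adult Pi pools 13.22, 13.40 and 13.35, below every Pi pool of 63 and 91 dpc. Neither later step was called over both breeds (0.19, adjusted p = 0.149, and -0.19, adjusted p = 0.0625). Leaving out DL adult pool b or Pi 91 dpc pool a brought the last one past the threshold (-0.25 and -0.22). Scaling to the spiked hybridisation controls did the same (-0.39), as did a trended robust prior (-0.19, adjusted p = 0.0436). With the mean of both ACTN2 probe sets the step from 63 to 91 dpc was called (0.37, adjusted p = 0.00234).

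In the order of its 8 group means ACTN2 was lowest at 35 dpc, in DL (12.55 ± 0.13, SD, n = 3) and Pi (12.56 ± 0.17), which overlap. Adult Pi followed (13.33 ± 0.09), apart from its neighbours on both sides. From Pi at 63 dpc (13.63) up to adult DL (14.08 ± 0.23) each group overlapped the next. A second ACTN2 probe set correlated with the first at r = 0.91 over the 24 arrays and differed in detail. It rose by 1.72 ± 0.09 from 35 to 63 dpc and by a further 0.55 ± 0.09 to 91 dpc (adjusted p = 1.9e-04), and its adult Pi pools, at 13.96, 14.07 and 14.12, were not below those of 91 dpc, at 13.82, 13.87 and 14.08.

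MYOZ1, for calsarcin-2, a Z-disc protein of fast fibres that binds alpha-actinin and calcineurin, rose in all 3 steps. The 6 pools of 35 dpc lay between 7.67 and 8.22, those of 63 dpc between 12.97 and 13.18, those of 91 dpc between 13.84 and 14.14, and those of adults between 15.07 and 15.10. No 2 stages overlapped, whereas the breeds overlapped at each of the 4 stages. The first step was 5.12 ± 0.07, or 34.7-fold (adjusted p = 2.03e-20), and made up 72.0% of the whole rise. The later steps were 0.90 ± 0.07 (adjusted p = 2.54e-08) and 1.10 ± 0.07 (adjusted p = 1.22e-10). Adult means were 15.08 ± 0.02 (DL) and 15.09 ± 0.01 (Pi), against a highest deposited value of 16.10 over all probe sets.

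CAPZB, the beta subunit of CapZ, which caps the barbed end of actin filaments, lay between 7.60 and 8.96 in the pools from before birth. Pools at 35 dpc read 7.74, 8.14 and 7.91 in DL and 7.63, 8.42 and 7.60 in Pi, and those at 91 dpc 7.78, 8.15 and 8.01 and 7.72, 7.97 and 8.002. At 63 dpc they were 8.96, 8.56 and 8.07 in DL and 8.03, 7.83 and 8.18 in Pi, and all 3 prenatal stages overlapped. The adult pools, at 9.75, 9.68 and 9.65 (DL) and 9.87, 9.80 and 9.57 (Pi), were above every earlier pool, the highest of which was DL at 63 dpc pool a (8.96). The last step was 1.78 ± 0.15, or 3.43-fold (adjusted p = 1.21e-08). The first step, 0.37 ± 0.15, was not called (adjusted p = 0.0604). It passed the threshold without DL 35 dpc pool b, DL 63 dpc pool c or Pi 35 dpc pool b (0.42 to 0.50). It also passed with array weights (0.39, adjusted p = 0.0278) and with the mean of the gene's probe sets (0.52, adjusted p = 0.00456). With arrays scaled to the spiked hybridisation controls it was -0.44 (adjusted p = 0.0256). That scaling moves the median of all probe sets by -0.81. The 91 dpc step of CAPZB, -0.33, was called only without DL 63 dpc pool c (-0.45, adjusted p = 0.0398).

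All 3 probe sets of CAPZB rose into adults, and they differed in the first step. The second rose by 1.24 ± 0.13 from 35 to 63 dpc (adjusted p = 1.95e-07) and by 1.54 ± 0.13 from 91 dpc to adult. The third probe set, a dim one, lay between 2.74 and 3.96 before birth and between 5.44 and 7.14 in adults, a rise of 2.65 ± 0.27 (adjusted p = 1.44e-07), with a first step of -0.04. They correlated with the brightest at r = 0.85 and 0.90.

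Tropomodulins cap the pointed end of the thin filament and so bear on its length; TMOD4 is the form of skeletal muscle and TMOD3 a widely expressed form. TMOD4 started close to background. Its pools of 35 dpc were 2.996, 2.43 and 2.26 in DL and 2.26, 3.63 and 2.35 in Pi, with 1 pool of each breed at or below its own array's ceiling. At 63 dpc they were 7.49, 7.56 and 7.73 (DL) and 8.14, 7.34 and 8.12 (Pi), and at 91 dpc 11.67, 11.46 and 11.56 and 11.20, 11.41 and 11.25. The adult values were 14.61, 14.39 and 14.66 in DL and 14.63, 14.72 and 14.71 in Pi. No stage overlapped the next in either breed.

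The fitted first step of TMOD4 was 5.08 ± 0.20 (adjusted p = 3.14e-13), and since 2 of the 6 pools of 35 dpc were at background and others close to it, its size is not well measured. The later steps, from levels well above background, were 3.69 ± 0.20, or 12.9-fold (adjusted p = 3.73e-10), and 3.19 ± 0.20, or 9.15-fold (adjusted p = 1.49e-10).

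TMOD3 ran in the opposite direction. At 35 dpc it stood at 5.39, 6.50 and 5.96 in the DL pools and at 9.05, 9.43 and 9.29 in the Pi pools. By 63 dpc the DL pools were at 2.31, 4.70 and 4.27 and the Pi pools at 5.04, 5.53 and 3.91. The fall between these stages was 3.31 ± 0.58 log2 units, or 9.92-fold (adjusted p = 1.18e-04), and no pool of either breed at 63 dpc reached its own 35 dpc range. Later pools scattered from 3.02 to 5.42 at 91 dpc and from 2.22 to 5.38 in adults, with group SDs of 0.87 to 1.56, and neither later step was called (-0.28, adjusted p = 0.894, and -0.22, adjusted p = 0.774). One pool each of DL at 63 dpc, adult DL and adult Pi was at background. From adult Pi (3.62) up to DL at 35 dpc (5.95) neighbouring group means overlapped, and Pi at 35 dpc (9.26 ± 0.19) stood apart above them.

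A second TMOD3 probe set gave the same first step, -3.31 (adjusted p = 8.87e-11), with an SE of 0.19 against 0.58 for the brightest, and a further fall of 0.48 ± 0.19 into adults (adjusted p = 0.0404), where all 3 DL pools were at background. At 35 dpc it read 6.16, 6.33 and 6.08 in DL and 6.58, 6.69 and 7.03 in Pi. The probe sets correlated at r = 0.81.

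**Figure D3:**
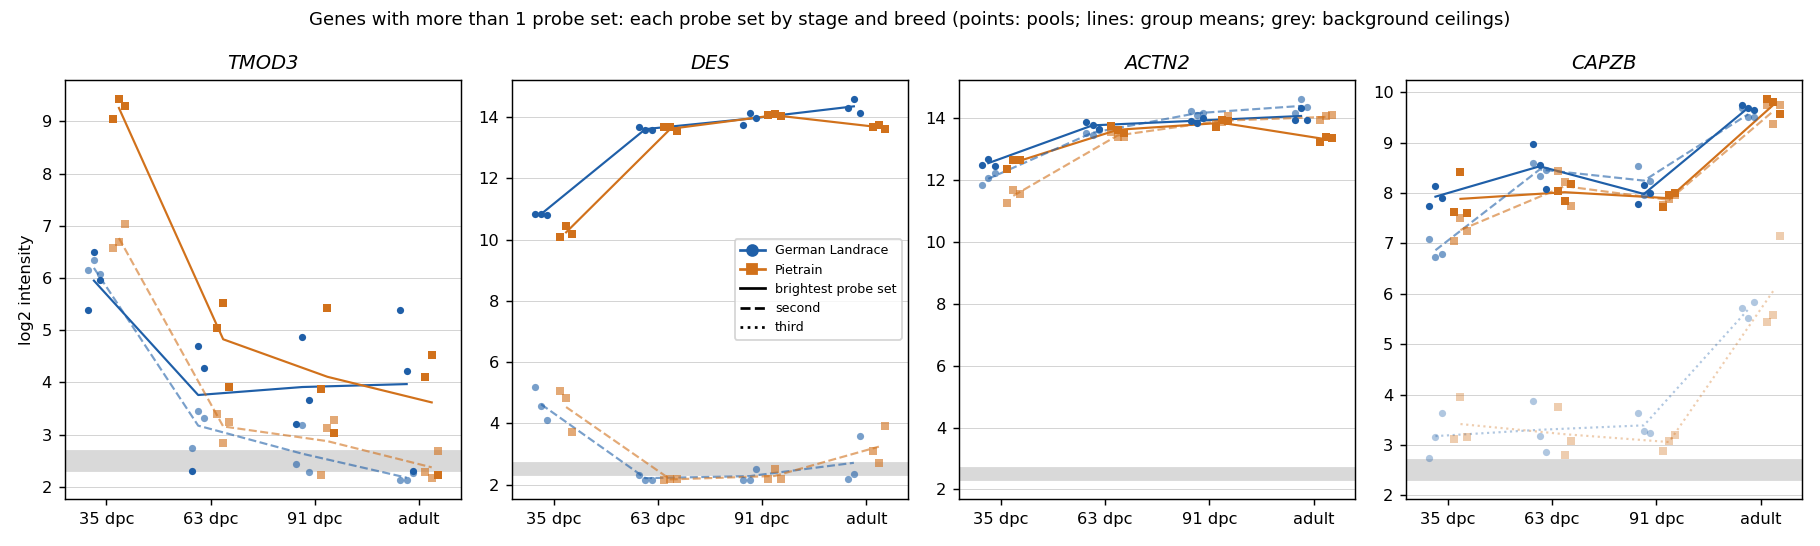
Log2 intensity (vertical axis, scaled per panel) of every probe set of the 4 genes that have more than 1, by stage, with pools as points, group means joined by lines (solid for the brightest, dashed for the second, dotted for the third) and background ceilings in grey. At 35 dpc the gap between Pi and DL in TMOD3 is 3.31 in the brightest probe set and 0.57 in the second, and all 6 pools of the second DES probe set lie at background at 63 dpc, where the brightest is above 13.

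DES encodes desmin, the intermediate filament protein of muscle. Its DL pools at 35 dpc were 10.85, 10.84 and 10.81 and its Pi pools 10.09, 10.43 and 10.20. At 63 dpc they were 13.69, 13.57 and 13.57 in DL and 13.66, 13.66 and 13.53 in Pi. The rise between these stages was 3.08 ± 0.08, or 8.44-fold (adjusted p = 5.55e-16), 88.5% of the whole change. At 91 dpc DL pools reached 13.75, 14.13 and 13.97 and Pi pools 14.07, 14.09 and 14.02, a further rise of 0.39 ± 0.08 (adjusted p = 0.00153), although scaling to the spiked controls ends this call (0.24, adjusted p = 0.176). Adult pools were 14.31, 14.60 and 14.15 in DL, above all earlier DL pools, and 13.66, 13.75 and 13.60 in Pi, below every Pi pool of 91 dpc, and the step averaged over breeds was 0.01 ± 0.08 (adjusted p = 0.949).

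The group order of DES began with Pi (10.24 ± 0.17) and DL (10.83 ± 0.02) at 35 dpc, which did not overlap, and ended with adult DL (14.35 ± 0.23), apart from the group below it. In between, from DL at 63 dpc (13.61) through adult Pi (13.67 ± 0.08) to Pi at 91 dpc (14.06), neighbours overlapped. A second, dim probe set annotated to DES did the reverse, with -2.39 ± 0.27 from 35 to 63 dpc (adjusted p = 6.75e-07), with every pool of 63 dpc at background and r = -0.85 with the brightest. With the mean of both in place of the brightest, the Pi-minus-DL differences of DES were -0.34 at 35 dpc and -0.08 in adults and were not called (adjusted p = 0.481 and 0.921). That mean also ended the call of the step from 63 to 91 dpc (0.24, adjusted p = 0.267). It gave a called rise from 91 dpc to adult (0.35, adjusted p = 0.0302). Which of the probe sets measures the DES transcript was not tested.

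NRAP, a protein of developing myofibrils and of muscle-tendon junctions that binds actin and alpha-actinin, rose in each step. At 35 dpc the DL pools were 4.19, 5.50 and 3.82 and the Pi pools 3.94, 4.02 and 3.09, and at 63 dpc all 6 lay between 9.24 and 9.93. At 91 dpc they spanned 11.13 to 11.88, and in adults 12.73 to 13.74. Stages did not overlap, and in each stage the breeds did. Signal near background at 35 dpc, where Pi pool c (3.09) had an array ceiling of 2.35, limits the size of the first step. The steps were 5.51 ± 0.25, or 45.6-fold (adjusted p = 2.71e-12), 1.92 ± 0.25 (adjusted p = 2.07e-05) and 1.70 ± 0.25 (adjusted p = 1.14e-05). With the GAPDH 3'-minus-5' difference as a covariate the last of them was 0.87 and not called (adjusted p = 0.313). That covariate lay between 0.71 and 1.51 at 91 dpc and between 0.11 and 0.20 in adults, without overlap. The fit therefore separates it poorly from the step, and its part in the rise is not settled.

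XIRP1, the actin-binding repeat protein Xin of intercalated discs and muscle-tendon junctions, rose in a pair of large steps with a small one between. Its pools at 35 dpc were 3.57, 4.63 and 3.58 (DL) and 2.53, 3.52 and 3.20 (Pi), and at 63 dpc 8.87, 8.57 and 9.09 and 9.16, 8.82 and 8.98. At 91 dpc the DL pools were 9.92, 9.52 and 9.89 and the Pi pools 9.33, 9.34 and 10.11. The adult values were 14.20, 15.01 and 14.52 in DL and 15.05, 14.94 and 14.84 in Pi, more than 4 log2 units above every prenatal pool. The steps were 5.41 ± 0.21, or 42.5-fold (adjusted p = 3.5e-13), 0.77 ± 0.21 (adjusted p = 0.0152) and 5.07 ± 0.21, or 33.6-fold (adjusted p = 6.42e-13). They held 48.1%, 6.86% and 45.1% of the whole change, and scaling to the spiked controls ends the call of the middle one (0.63, adjusted p = 0.0662). At 35 dpc Pi pool a (2.53) lay just above its array's background ceiling of 2.36, so the size of the first step and these shares are not well measured.

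SMPX, the small muscle protein of costameres that responds to stretch, had its highest levels before birth. Pools at 35 dpc were 11.54, 11.61 and 11.68 in DL and 11.65, 11.64 and 11.82 in Pi, and at 63 dpc 13.67, 13.47 and 13.67 and 13.48, 13.43 and 13.43. At 91 dpc they were 13.72, 13.77 and 13.61 in DL and 13.49, 13.38 and 13.56 in Pi. In adults DL pools were at 13.28, 13.66 and 13.16 and Pi pools at 12.45, 12.47 and 12.45, below every pool of 63 and 91 dpc. The rise of 1.87 ± 0.07, or 3.65-fold (adjusted p = 3.22e-13), was followed by no called change (0.06, adjusted p = 0.735) and then by a fall of 0.67 ± 0.07, or 1.59-fold (adjusted p = 2.82e-07). Adult Pi (12.46 ± 0.01) stood apart from its neighbours in the group order, and from adult DL (13.37 ± 0.26) to DL at 91 dpc (13.70 ± 0.08) neighbours overlapped.

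LIMS2, or PINCH-2, is a LIM-domain adaptor that joins integrin-linked kinase at adhesion sites. It rose from 35 to 63 dpc by a fitted 5.96 ± 0.16 (adjusted p = 7.37e-16), from pools that in Pi lay at or just above background. Pools at 35 dpc were 4.09, 4.50 and 4.89 in DL and 2.72, 2.13 and 2.57 in Pi, the second of these at background. At 63 dpc the DL pools were 9.22, 9.57 and 9.42 and the Pi pools 9.54, 9.52 and 9.38, and at 91 dpc 9.57, 9.63 and 9.72 and 9.38, 9.41 and 10.05. The middle step was 0.18 (adjusted p = 0.549). Adult pools were 10.13, 9.96 and 10.25 (DL) and 9.95, 10.68 and 10.49 (Pi). The last step was 0.62 ± 0.16, or 1.53-fold (adjusted p = 0.00239). With the GAPDH covariate, which as for NRAP is poorly separated from this step, it was 0.98 and not called (adjusted p = 0.0644).

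Breed differences were sought at each stage as Pi minus DL. At 35 dpc 3 of the 10 genes were called, 2 lower and 1 higher in Pi, with 4.03% of all probe sets called. LIMS2 was lower in Pi by a fitted 2.02 ± 0.22 log2 units (adjusted p = 4.82e-05), and all 3 Pi pools lay below all DL pools. With 1 Pi pool at background and the other 2 just above it, the size of this difference is not well measured. DES was lower by 0.60 ± 0.11 (1.51-fold, adjusted p = 0.00468), again without overlap, and this call is lost with arrays scaled to the spiked controls (-0.09, adjusted p = 0.699), which moves the median of all probe sets by 0.51 in this comparison. Under that scaling 4 genes were called, 3 higher and 1 lower in Pi, with ACTN2 (0.52, adjusted p = 0.0173) and SMPX (0.60, adjusted p = 0.0061) now higher. Those controls read 10.40 to 10.64 in the DL and 9.94 to 10.14 in the Pi pools of 35 dpc.

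TMOD3 was higher in Pi at 35 dpc by 3.31 ± 0.82 (9.90-fold, adjusted p = 0.0292) in its brightest probe set. Leaving out any of the 6 pools of that stage ended this call, with differences of 3.03 to 3.58 and adjusted p of 0.0573 to 0.117. The second probe set differed by 0.57 ± 0.27 (adjusted p = 0.359), with Pi pools above DL pools. XIRP1 pools of Pi also lay below those of DL without a call (-0.84 ± 0.30, adjusted p = 0.159). The second ACTN2 probe set was lower in Pi by 0.55 ± 0.13 (adjusted p = 0.0178), whereas the brightest differed by 0.01 ± 0.12, with a 95% interval of -0.24 to 0.26. The skeletal muscle markers, given above, were also lower in Pi at this stage, and their part in the differences was not tested.

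None of the 10 genes was called between breeds at 63 dpc, where limma called 1.37% of probe sets and 2959 had an unadjusted p under 0.05, nor at 91 dpc, where it called 2.72% and 3450 had one. At 63 dpc the pools of the breeds overlapped in all 10 genes. At 91 dpc all Pi pools of TMOD4 and SMPX lay below all DL pools, without a call (adjusted p = 0.829 and 0.321). The share of all probe sets with pools apart in this way was not counted at any stage. Separation alone is therefore given only as a description. Of the 10 genes, CAPZB at 63 dpc and SMPX at 91 dpc had unadjusted intervals that leave out 0, from -0.97 to -0.06 and from -0.45 to -0.01. For LIMS2, which differed most at 35 dpc in the negative direction, the 63 dpc difference was 0.08, with an interval of -0.39 to 0.54.

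In adults 3 genes were called, all lower in Pi, with 6.33% of probe sets called. SMPX was lower by 0.91 ± 0.10 (1.88-fold, adjusted p = 4.35e-05), ACTN2 by 0.75 ± 0.12 (1.69-fold, adjusted p = 9.51e-04) and DES by 0.68 ± 0.11 (1.602-fold, adjusted p = 0.00128), each without overlap of pools. DL pool b was the highest adult pool for all 3, and without it they differed by -0.76, -0.62 and -0.56 and were still called. Without Pi pool b, where the liver markers were highest, the differences were -0.92, -0.79 and -0.72, also called. Liver markers were also higher in the adult DL pools (means of 6.97, 5.28 and 6.38) than in Pi pools a and c (3.54 and 3.61). Their part in these differences was not tested. When only the 6 adult arrays were fitted, none of the 3 passed (adjusted p = 0.194, 0.22 and 0.241) and limma called 21 probe sets in all, against 1519 in the fit over all arrays. Residual SDs per array ran from 0.65 to 0.85 in adults and from 0.29 to 0.38 at 35 dpc, and with a weight for each array SMPX alone of these 3 was called.

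Adult breeds overlapped in the other 7 genes. MYOZ1 differed by 0.00 ± 0.10, with an interval of -0.20 to 0.20, and TMOD4 by 0.13, with an interval of -0.46 to 0.72. The second ACTN2 probe set differed by -0.35 ± 0.13 (adjusted p = 0.109), with no overlap of pools. Beside these results, 5 of 7 adipocyte markers averaged 5.88 to 6.73 in adult DL and 7.16 to 7.52 in adult Pi, with LEP at background in every Pi pool. Of 12 immune markers 8 were measured and averaged 4.29 to 5.45 and 5.59 to 5.95, with CD3D at background in all adult pools. Their part in the lower SMPX, ACTN2 and DES values was not tested.

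**Figure D4:**
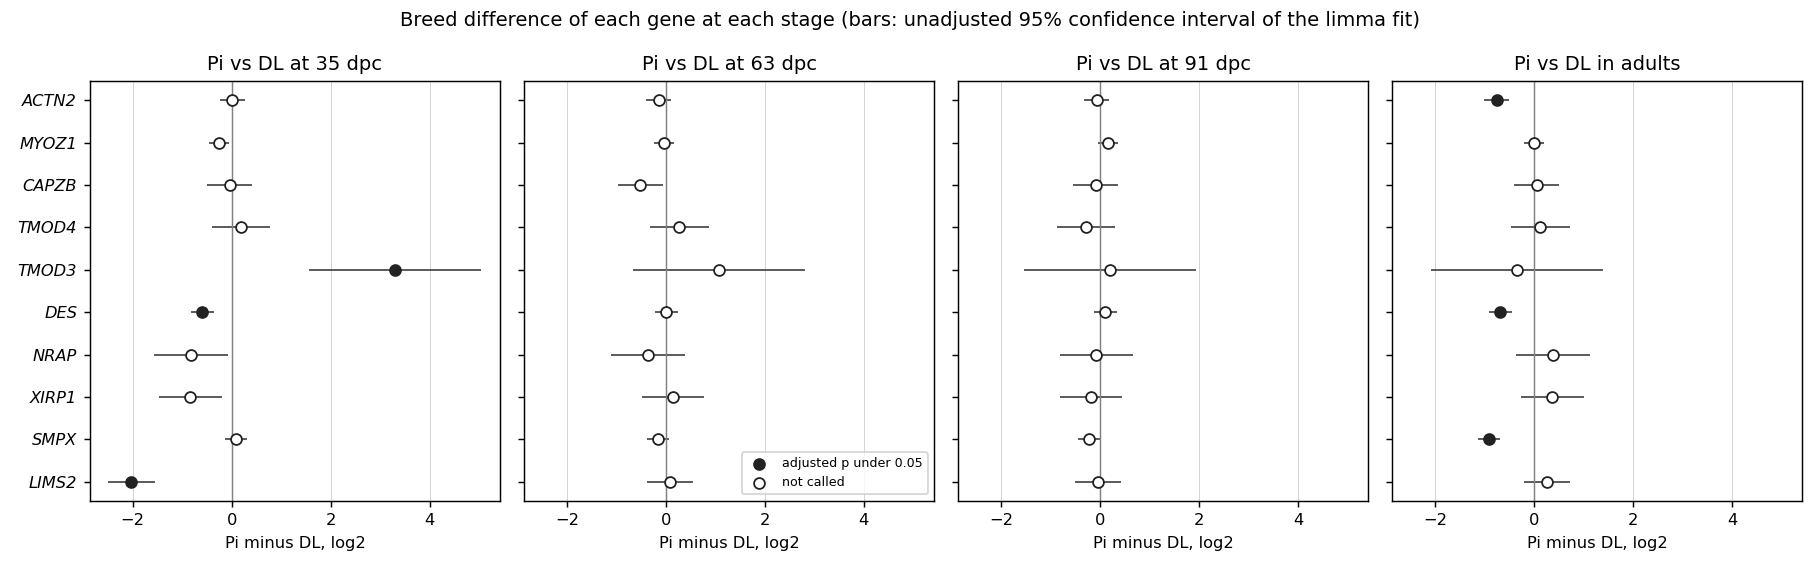
Pi minus DL in log2 units (horizontal axis) of each of the 10 genes at 35, 63 and 91 dpc and in adults, with unadjusted 95% confidence intervals of the limma fit and filled points for an adjusted p under 0.05. LIMS2, DES and TMOD3 are filled at 35 dpc, no gene at 63 or 91 dpc, and ACTN2, DES and SMPX in adults. The DES point at 35 dpc moves to -0.09 when arrays are scaled to the spiked controls.

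Averaged over the 4 stages, 4 genes were lower in Pi and none higher, with 6.29% of probe sets called. The differences were -0.30 ± 0.05 for SMPX (adjusted p = 0.00223), -0.29 ± 0.06 for DES (adjusted p = 0.00527), -0.24 ± 0.06 for ACTN2 (adjusted p = 0.0228) and -0.43 ± 0.11 for LIMS2 (adjusted p = 0.0273). They average unequal stages, since DES differed by -0.60 and -0.68 at the ends and by 0.01 and 0.11 between. The DES call was lost with the mean of its probe sets (-0.09, adjusted p = 0.663), that of ACTN2 under scaling to the spiked controls (adjusted p = 0.0559) and that of LIMS2 with array weights (adjusted p = 0.0633). The LIMS2 call was also lost without Pi 91 dpc pool a or pool b (adjusted p = 0.0509 and 0.0512).

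Whether a step differed between the breeds was tested directly. From 35 to 63 dpc LIMS2 rose by 4.91 in DL and 7.01 in Pi, a difference of 2.10 ± 0.31 (adjusted p = 0.00118) that shares the Pi pools near background, and DES by 2.78 and 3.38, a difference of 0.61 ± 0.16 (adjusted p = 0.0437). These were 2 of the 10 genes, with 3.3% of probe sets called, and the DES call was lost in 16 of the 24 fits that each left out 1 pool (adjusted p = 0.0508 to 0.0976) and became -0.02 under scaling to the spiked controls. That scaling, which moves the median of all probe sets by -0.63 here, gave 1 gene higher and 3 lower, the latter ACTN2 (-0.78), CAPZB (-1.10) and SMPX (-0.88). No gene was called for the step from 63 to 91 dpc, where limma called 0.0917% of probe sets and 2049 had an unadjusted p under 0.05. For the step to adult 3 of the 10 were called, all lower in Pi, with 2.66% of probe sets called. DES changed by 0.40 in DL and -0.39 in Pi (difference -0.79 ± 0.16, adjusted p = 0.0129), SMPX by -0.33 and -1.01 (-0.68 ± 0.15, adjusted p = 0.0196) and ACTN2 by 0.15 and -0.53 (-0.68 ± 0.17, adjusted p = 0.0367). None of these 3 was called in the fit of the compared groups alone (adjusted p = 0.138, 0.174 and 0.164), with array weights or under scaling to the spiked controls, and that of ACTN2 was also lost in 6 of the fits that left out 1 pool (adjusted p = 0.0627 to 0.0941). The second ACTN2 probe set gave -0.11 (adjusted p = 0.837).

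Genes with related roles were counted from 5 lists. Over all genes 54.5%, 26.6% and 66.8% were called in the 3 successive steps. A list with a number called near these shares does not stand out by its count. Of 38 other Z-disc genes 18 were measured, and 14 rose, none fell and 4 were not called from 35 to 63 dpc, with a median of 1.38 against 0.03 over all genes. PDLIM5 (2.88 ± 0.09) and the small heat shock proteins HSPB8 (2.85 ± 0.14) and CRYAB (2.31 ± 0.08) changed most. From 63 to 91 dpc 8 rose and 4 fell, led by PDLIM3 (1.86) and the titin cap TCAP (1.82), with the stress-responsive ankyrin repeat gene ANKRD1 lower by 0.89. In the step to adult 15 rose and 3 fell, led by ANKRD1 (6.04 ± 0.26), PDLIM3 (3.30) and FHL3 (3.26).

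The 28 genes of filament capping and thin filament length gave 19 measured, of which 8 rose and 4 fell in the first step (median 0.09), 3 rose and 5 fell in the second (-0.09) and 6 rose and 8 fell in the last (-0.07). TMOD1, a further tropomodulin, rose by 2.18 ± 0.09 in the first step, as did the tropomyosin TPM2 by 2.11, while profilin 2, PFN2, changed by -1.96. In the second LMOD3, a leiomodin that lengthens thin filaments, rose by 1.13, while CAPG (-1.505) and the actin-severing DSTN (-1.28) fell. TPM4 (-1.87), DSTN (-1.73) and cofilin 1, CFL1 (-1.601), fell in the last.

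Of 13 intermediate filament genes and linkers 8 were measured, with 3 higher and 2 lower, then 2 and 3, then 4 and 4 in successive steps (medians 0.39, -0.41 and 0.06). Synemin, SYNM, a partner of desmin, rose by 2.07, 1.45 and 1.43 in turn, and vimentin, VIM, fell in each step (-0.23, -0.77 and -2.08). KRT19 rose by 1.85 and then fell by 2.77, in DL to a mean of 2.10 at 91 dpc, below the background ceilings. The size of that fall is therefore not well measured. LMNA rose by 1.16 in the first step, and LMNB1 fell by 4.16 and KRT8 rose by 1.93 into adults.

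The integrin and integrin-linked kinase list had 12 of 24 genes measured, of which 6 rose and 1 fell, then 2 and 1, then 1 and 6 (medians 0.61, -0.05 and -0.57). ITGB1BP2, or melusin, rose by 2.59 and talin 1, TLN1, by 1.94 in the first step, while TNS3 (-2.63), PARVA (-1.96) and ITGB1 (-1.36) fell in the last. LIMS1, the close relative of LIMS2, was not called in any step (0.69, 0.20 and -1.17). Of 24 genes of the dystrophin complex 6 were measured, with 4 higher and 1 lower, 2 and 1, and 3 and 1 (medians 0.73, 0.26 and 0.57), and DMD itself rose by 1.32 and 0.75 in the first steps.

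**Figure D5:**
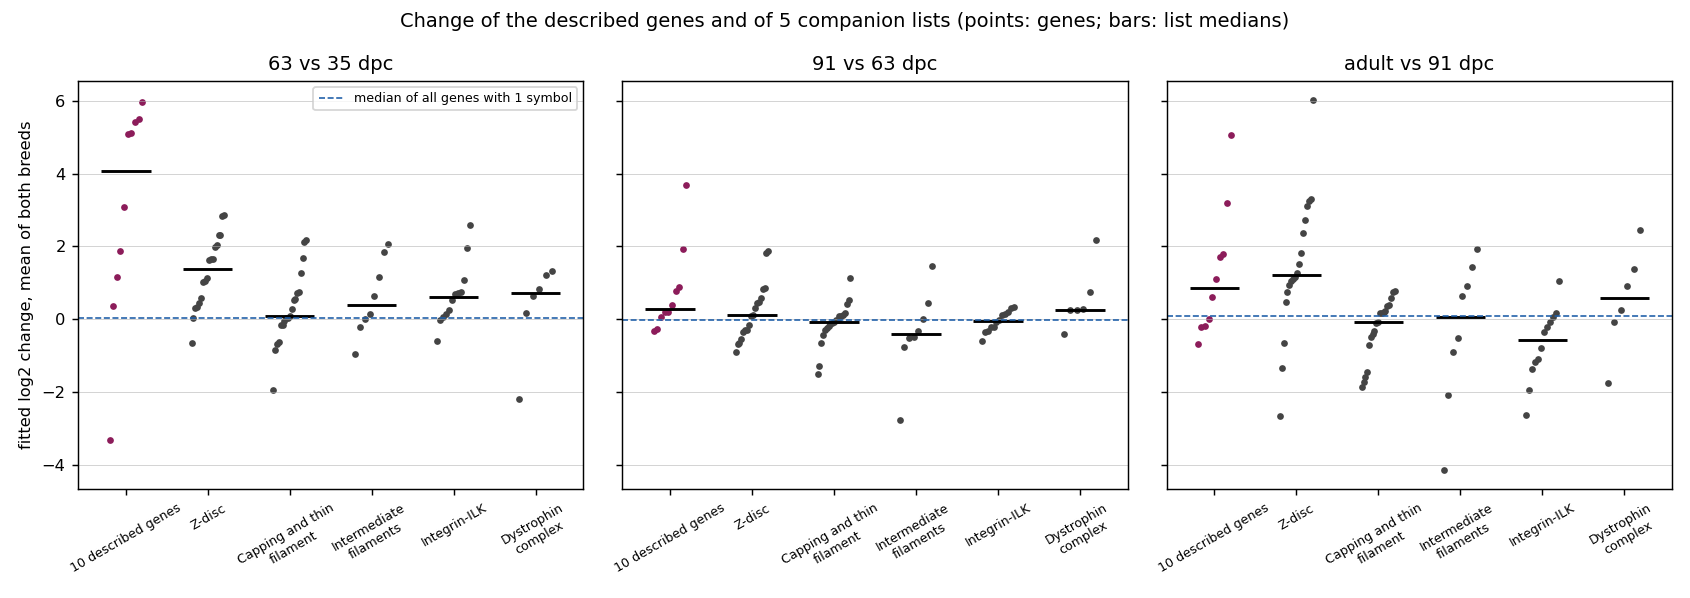
Fitted log2 change (vertical axis, mean of both breeds) of the 10 genes and of the measured genes of 5 lists for each step, with a point per gene, a bar for each list's median and a dashed line for the median of all genes with 1 symbol. The bar of the 10 genes is at 4.08 in the first step and that of the other Z-disc genes at 1.38, and in the last step the bars are at 0.86 and 1.21. The 10 genes and the lists were chosen with earlier results of these data known.

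Between breeds calls in the lists were counted in the same way. At 35 dpc CRYAB (-0.52), TPM2 (-0.74), CAPZA2 (-0.75), the alpha partner of CAPZB, LMNA (-0.56), TLN1 (-0.65) and SPTAN1 (-0.87) were lower in Pi. RSU1 (0.88) and the non-muscle alpha-actinin ACTN1 (1.15 ± 0.28, adjusted p = 0.0245) were higher. In adults 4 of 18 Z-disc genes were lower in Pi and 1 higher, namely PDLIM5 (-0.81), FHL3 (-0.86), MYOT (-0.40), FHL1 (-0.35) and FHL2 (1.09), and 5 of 19 capping genes were lower and 4 higher, TMOD1 among the latter (0.47, adjusted p = 0.0302). Over all genes 5.51% were called at 35 dpc and 6.96% in adults. Of 8 intermediate filament genes KRT18 alone was called, higher by 1.52. It was at background in every adult DL pool (mean 2.33), so the size of that difference is not well measured. None of the 12 adhesion and 6 dystrophin complex genes was called. At 63 dpc no listed gene was called, and at 91 dpc PDLIM3 was, at -0.72.

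The genes most like each of the 10 over the 24 arrays are given by Pearson's r, as a description. All arrays share the 8 groups and the common distribution, so genes that change with stage score high together. MYOZ1 was nearest to SLN (0.995) and ENO3 (0.993), XIRP1 to HSPB8 and PGAM2 (both 0.992), TMOD4 to NDUFB11 (0.993) and NRAP to FMC1 (0.991) and SLC25A4 (0.990). LIMS2 and DES both had the muscle creatine kinase CKM first (0.994 and 0.986). ACTN2 was nearest to MYBPC1 (0.965), SMPX to SLC2A4RG (0.945) and CAPZB to PIK3AP1 (0.948) and ANKRD1 (0.946). For TMOD3 the highest was HNRNPK at 0.861. Among the 10 themselves r ran from -0.85 (TMOD3 with LIMS2) to 0.98 (MYOZ1 with NRAP).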

How the data were processed

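The deposited values are log2 intensities, 1 for each probe set on each array. The submitters' processing notes name GCOS 1.1.1, and no source used here states how probes were summarised. The authors' log base was read as 2 from the range of 1.598 to 16.10. After sorting, the 24 deposited columns were identical, so they had been quantile-normalised, and a change in total mRNA cannot be seen. No column of per-sample values was left unused.

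Groups came from titles and characteristics. Of 24123 probe sets 124 controls were left out; 10069 of the rest have 1 symbol, 198 several and 13732 none. No sequence tables or genome of the array's build were used here, so no sequence or coordinate is given. The background ceiling came from 17 Tag and 6 trpn controls. The dap, lys, phe and thr controls carry target and were left out as whole targets; leaving out only bright probe sets would give ceilings of 2.96 to 8.17.

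limma 3.58.1 (R 4.3.3) fitted 1 mean per group to all 24 arrays, with 16 residual and 1.31 prior degrees of freedom. Tests were two-sided, with Benjamini-Hochberg adjustment over 23999 probe sets in each of 11 comparisons. Values after ± are SDs over 3 pools for group means and standard errors for changes and differences. The script was tested on simulated data. Alternatives were a replicate block, array weights, the compared groups alone, a trended robust prior, the mean of a gene's probe sets, scaling to 27 spiked hybridisation control probe sets, a filter to probe sets above background on 3 arrays, a GAPDH 3'-minus-5' covariate, and each pool left out. Pools with the same letter did not deviate together (mean r of -0.001, -0.002 and -0.004 for a, b and c, 28 pairs each), so the letters are not a pairing.

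The 10 genes, the lists and the tests were chosen with earlier results of these data known. Named genes were all 10, up to 3 called genes per list and step with the largest change, and for each of the 10 the 2 genes with the highest r among those above background on at least 12 arrays. TMOD1, LIMS1, VIM, SYNM, DMD and the listed genes named between breeds were further named after their values were seen. Figures used matplotlib 3.10.9 in Python 3.11.15.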

Additional observations from a re-analysis of the deposited data

Results flagged for a closer look

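By the interaction test over all arrays, 5 changes between stages differed between the breeds. From 35 to 63 dpc the rise of LIMS2 was 2.10 log2 units larger in Pi than in DL, and that of DES 0.61 larger. From 91 dpc to adult the change in Pi minus that in DL was -0.79 for DES, -0.68 for ACTN2 and -0.68 for SMPX. Only that of LIMS2 was called under every alternative tried. The 3 adult ones were lost with array weights, with the compared groups alone and under scaling to the spiked controls, and that of DES from 35 to 63 dpc in 16 of 24 fits that left out 1 pool. With the mean of its probe sets DES was called in neither step (0.33 and -0.13). No explanation of these differences was tested. Groups of 3 pools were not screened for a single distant pool.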

How the results depend on the processing

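With the pool letter as a replicate block none of the 110 results (10 genes in 11 comparisons) changed its call, and 9 genes were still called from 35 to 63 dpc. Leaving out 1 pool at a time left the call as it was in 2604 cases, ended it in 30, added it in 6 and reversed none; the count for the interaction from 35 to 63 dpc then ran from 1 to 2. Scaling to the spiked controls moved the median of all probe sets by -0.81 (63 against 35 dpc), 0.51 (Pi against DL at 35 dpc), -0.32 (91 dpc), -0.22 (adults) and -0.63 (interaction from 35 to 63 dpc). It turned CAPZB in the first step to -0.44 and the DES interaction of that step to -0.024. Under this scaling 3 genes instead of 5 were called from 63 to 91 dpc, 1 instead of 0 between breeds at 91 dpc, 4 (1 higher, 3 lower) instead of 2 (both higher) for the first interaction and 0 instead of 3 for the last. Array weights gave 6 instead of 3 genes between breeds at 35 dpc, 1 instead of 3 in adults and 0 instead of 3 for the last interaction. Fitting only the compared groups gave 0 instead of 3 for both of these adult comparisons, with fewer arrays behind the spread. The first interaction had 1 gene instead of 2 with the filter on dim probe sets, with the GAPDH covariate and with the mean of a gene's probe sets, and the last had 1 instead of 3 with that mean. For these the cause was not tested. Counts over all probe sets moved more: array weights called 3156 at 35 dpc against 966, 1000 at 63 dpc against 329, 1285 at 91 dpc against 653 and 242 in adults against 1519, and the compared groups alone called 11, 16 and 21 at the last 3. Without DL 91 dpc pool c, 1257 were called between breeds at 91 dpc, and without Pi 91 dpc pool b 248. The GAPDH covariate, poorly separated from that step, called 6451 from 91 dpc to adult against 13772. The scaling called 17663 from 35 to 63 dpc against 10611, and 8421 between breeds at 35 dpc. For the interactions from 35 to 63 dpc, from 63 to 91 dpc and to adult, 793, 22 and 638 probe sets were called, against 2329, 113 and 174 with array weights, 1395, 7 and 80 with the compared groups alone, and 115 for the middle one without DL 91 dpc pool c. Signal near background limits TMOD4, XIRP1, NRAP and LIMS2 at 35 dpc and TMOD3 later.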
